A study of Homo sapiens with 2 samples.

Results

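The 7SK ribonucleoprotein and the kinase it holds were followed by the expression of 8 genes, chosen by gene name from the deposited table of 61541 genes, where each of the 8 names matched 1 row. They are the RNA RN7SK, its binding proteins LARP7, MEPCE, HEXIM1 and HEXIM2, and the kinase CDK9 with its cyclins CCNT1 and CCNT2. The names were chosen from a list drawn up with results of these 2 libraries known, so the values of the 8 genes are given as a description, with no test. The samples were Huh7 hepatocellular carcinoma cells given a negative control siRNA (Huh7-NC) and Huh7 cells given an siRNA against BRF2 (Huh7-si). Each had 1 library and no replicate, and the study asked how BRF2 affects mRNA expression. The time after transfection, which of the study's siRNAs against BRF2 was sequenced, and whether poly(A) RNA was selected are not given in the sources used here.

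7SK is a small nuclear RNA made by RNA polymerase III. With HEXIM proteins it holds P-TEFb, the pair of CDK9 and cyclin T1 or T2, in an inactive store, and released P-TEFb phosphorylates RNA polymerase II and its pausing factors so that paused polymerase can elongate. MEPCE caps the first base of 7SK and LARP7 binds its 3′ end, which protects the RNA. BRF2, the targeted gene, encodes a subunit of the initiation factor that RNA polymerase III uses at promoters of the 7SK and U6 type.

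The 7SK RNA is shown here because the other proteins of the particle assemble on its ends. RN7SK (ENSG00000283293) lies at chr6:52995621-52995948 on the plus strand of GRCh38 (positions here are from GENCODE release 29, while the submitters name GRCh37), has 1 annotated transcript of 328 bases and no intron, and 58.2% of its bases are G or C. The RefSeq gene is 332 bases long. The first stretch below is the 5′ part, bases 1 to 100 (chr6:52995621-52995720), with GATC in capitals, the letters (GAUC in RNA) around which HEXIM proteins are known to bind. The second is the 3′ end of this annotated transcript, bases 269 to 328 (chr6:52995889-52995948), with its closing run of 7 C and T bases in capitals. LARP7 binds the 3′ end of 7SK. Since the RefSeq gene is longer, the annotated first and last bases may not be those of the full RNA, and the capitals do not mark the bound bases.
7SK 5′ part: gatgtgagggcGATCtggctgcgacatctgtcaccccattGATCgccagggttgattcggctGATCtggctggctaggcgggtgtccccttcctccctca
7SK 3′ end: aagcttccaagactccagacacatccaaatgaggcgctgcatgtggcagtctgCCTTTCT
The motif GATC reads the same on both strands. It occurs 3 times in the whole RNA, from bases 12, 41 and 63, and all 3 matches lie in the 5′ part. Among 203677 GENCODE transcripts of at least 100 bases, 22.4% held GATC at least once in their first 100 bases, and 582 (0.286%) held it 3 times or more. A match is a description of the letters and not of a bound site.

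The libraries held 22852648 reads on genes in Huh7-NC and 22089016 in Huh7-si. BRF2 itself went from 1281 reads to 364 in Huh7-si, a log2 ratio of -1.77 (95% interval -1.94 to -1.60). All ratios are Huh7-si over Huh7-NC, of CPM (a gene's share of its library's reads on genes) unless TPM (scaled also for length) is named, and intervals are 95% exact Clopper-Pearson intervals that cover counting error only, not the variation between cultures. Of the 17921 genes with at least 10 reads over both libraries, 15.2% had a ratio of at least 2 and 1.81% a ratio of at most 0.5, and the median log2 ratio was 0.21. The genes past 2-fold were thus 89.3% higher ones, against 78.4% with TMM scaling, which lowers every log2 ratio by 0.22. The 10 hepatoma markers examined, ALB and AFP among them, had 76.6 to 3957 TPM in Huh7-NC and 107 to 4077 TPM in Huh7-si. Of 13 markers of leukocytes, endothelium, fibroblasts and bile duct cells, summing to 243 and 267 TPM, 7 were under 1 TPM in both libraries and CD3E and DCN had 0 reads. KRT19 (178 and 176 TPM) and SOX9 (49.9 and 69.5 TPM) made up most of the sum. Among the markers APOB (log2 ratio 1.04) and the collagen gene COL1A1 (76 and 229 reads, 1.64) were past 2-fold higher with at least 100 reads in a library. Both samples are labelled as Huh7 cells, so reads of such markers do not by themselves mean that other cells were present, which was not tested. In bulk RNA fewer cells of a type and less RNA per cell cannot be told apart.

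Of the 8 genes, 2 were past the 2-fold threshold, RN7SK and CCNT2, both higher in Huh7-si, beside 15.2% of all genes tested. None was past it in the other direction, beside 1.81% of all genes. All 8 had at least 10 reads, and their median log2 ratio was 0.17, beside 0.21 over all genes. The plot of TPM by library shows RN7SK, CCNT1 and CCNT2 with counting intervals far apart between the libraries, while those of LARP7, MEPCE and HEXIM2 overlap. CDK9 and HEXIM1 lie between, with intervals that are close but apart.

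**Figure D1:**
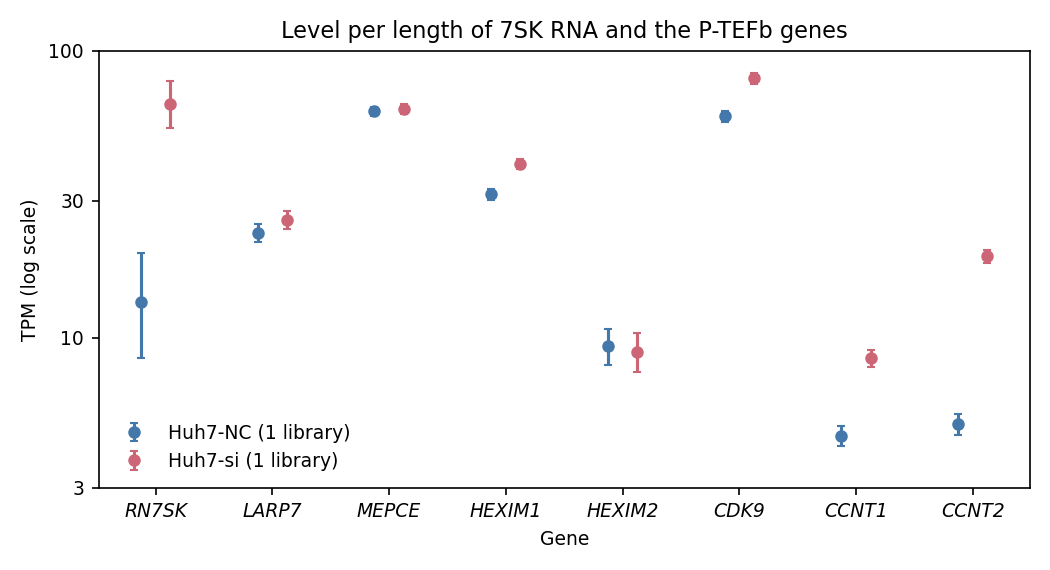
TPM (log axis) of the 8 genes in the Huh7-NC library (blue) and the Huh7-si library (red), with bars for the 95% exact Poisson interval of the reads. RN7SK went from 13.3 to 65.2 TPM and CCNT2 from 5.0 to 19.2 TPM, whereas HEXIM2 stood at 9.34 and 8.93 TPM.

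RN7SK, the scaffold RNA, had the largest ratio of the 8 genes and the fewest reads. Huh7-NC held 24 reads of it and Huh7-si 109.9 reads, at 1.05 and 4.98 CPM. This was 4.74-fold higher in Huh7-si (95% counting interval 3.03 to 7.71), a log2 ratio of 2.24 (1.60 to 2.95). Of all genes tested, 3.06% had a higher ratio. How the RNA was selected is not given, and 7SK carries no long poly(A) tail. Whether both libraries captured such RNA alike was not tested, so the ratio may not be that in the cells. The ratio was past 2-fold under each of the 9 settings tried, from a log2 ratio of 1.54 with 1 CPM added to each value to 2.30 relative to genes of like length. In all, 116 genes of up to 500 bases had at least 100 reads over both libraries. Among these the median log2 ratio was -0.25, 9 were past 2-fold higher and 6 past it lower, and 2 lay above RN7SK. RN7SK passed this read filter through its reads in Huh7-si, so its place among these genes is no support for its ratio.

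Copies of 7SK elsewhere in the genome took few reads. The table lists 293 pseudogenes named RN7SKP and a number, of which 13 had reads, at most 4 in a library. Together they held 8.65 and 13.9 reads in Huh7-NC and Huh7-si. With them, the 7SK family had 32.65 and 124 reads, a log2 ratio of 1.97 (1.40 to 2.56), and RN7SK held 73.5% and 88.8% of the family's reads. Another entry at the same place and strand, RF00100, had 0 reads in both libraries.

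The other small RNAs of RNA polymerase III were sparsely covered. Of 18 listed symbols 17 were matched, to 18 rows, 9 rows had any reads and 2 had at least 10. RN7SL1, the RNA of the signal recognition particle, held 112 and 141 reads, a log2 ratio of 0.38 (0.01 to 0.75). Its near-identical copy RN7SL2 had 41.4 and 74.3 reads, a log2 ratio of 0.89 (0.33 to 1.49), and reads may be split between them. RPPH1, the RNA of RNase P, whose promoter is of the 7SK type, had 0 reads in Huh7-NC, which allows up to 3, and 6 in Huh7-si. RMRP had 0 and 5 reads in 1 of its 2 rows. RN7SL1 and RN7SL2, the only rows with at least 10 reads, did not pass 2-fold, beside 15.2% of all genes higher and 1.81% lower. The other rows had too few reads to be counted.

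The proteins that bind 7SK at its ends differed little between the libraries (values are given for Huh7-NC first). LARP7 (ENSG00000174720, chr4:112636964-112657592), which holds the 3′ end, went from 734 to 783 reads (32.1 to 35.4 CPM). Its log2 ratio was 0.14 (-0.0049 to 0.29), within counting error. MEPCE (ENSG00000146834, chr7:100428790-100434126), the capping enzyme, went from 2687 to 2439 reads (118 to 110.4 CPM). Its log2 ratio was -0.09 (-0.17 to -0.01), and 0.03 by TPM. The sign for each therefore depends on the processing, LARP7 being at -0.08 with TMM scaling. On the opposite strand, ZGRF1 overlaps LARP7 with 145 and 257 reads, and ZCWPW1 overlaps MEPCE with 101 and 137 reads. The strandedness of the libraries is not given, so such reads may be shared.

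HEXIM1 and HEXIM2, the inhibitors that act on P-TEFb once 7SK is bound, also stayed under the threshold. HEXIM1 (ENSG00000186834, chr17:45148502-45152101, 1 transcript) went from 2098 to 2278 reads (91.8 to 103 CPM). Its log2 ratio was 0.17 (0.08 to 0.25), 0.35 by TPM, and -0.06 with TMM scaling. HEXIM2 (ENSG00000168517, chr17:45160700-45170040) went from 196 to 160.5 reads (8.59 to 7.27 CPM), with a log2 ratio of -0.24 (-0.55 to 0.06). HEXIM2 was below 0 under all 9 settings, from -0.47 to -0.06. HEXIM1 was the main HEXIM gene in both libraries, at 3.38 times the TPM of HEXIM2 in Huh7-NC and 4.51 times in Huh7-si.

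Of the P-TEFb genes, the kinase differed little by CPM and the cyclins more. CDK9 (ENSG00000136807, chr9:127785679-127790787) went from 1877 to 2039 reads (82.1 to 92.3 CPM). Its log2 ratio was 0.17 (0.08 to 0.26), 0.44 by TPM and -0.06 with TMM scaling. CCNT1 (ENSG00000129315, chr12:48688458-48716998, minus strand) encodes cyclin T1 and went from 587 to 931 reads (25.7 to 42.1 CPM). Its log2 ratio was 0.71 (0.56 to 0.87), 0.90 by TPM and 0.49 with TMM scaling, above 0 under all 9 settings and past 2-fold under none. By CPM 23.6% of all genes had a higher ratio. Relative to genes of like length CCNT1 was at 0.17 and CDK9 at 0.08. CCNT2 (ENSG00000082258, chr2:134918235-134959342) encodes cyclin T2 and went from 561 to 1356 reads (24.5 to 61.4 CPM). It was 2.501-fold higher in Huh7-si (2.26 to 2.76), a log2 ratio of 1.32 (1.18 to 1.47), and 9.57% of all genes had a higher ratio. The antisense gene CCNT2-AS1 overlaps it with 51 and 34.9 reads.

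**Figure D2:**
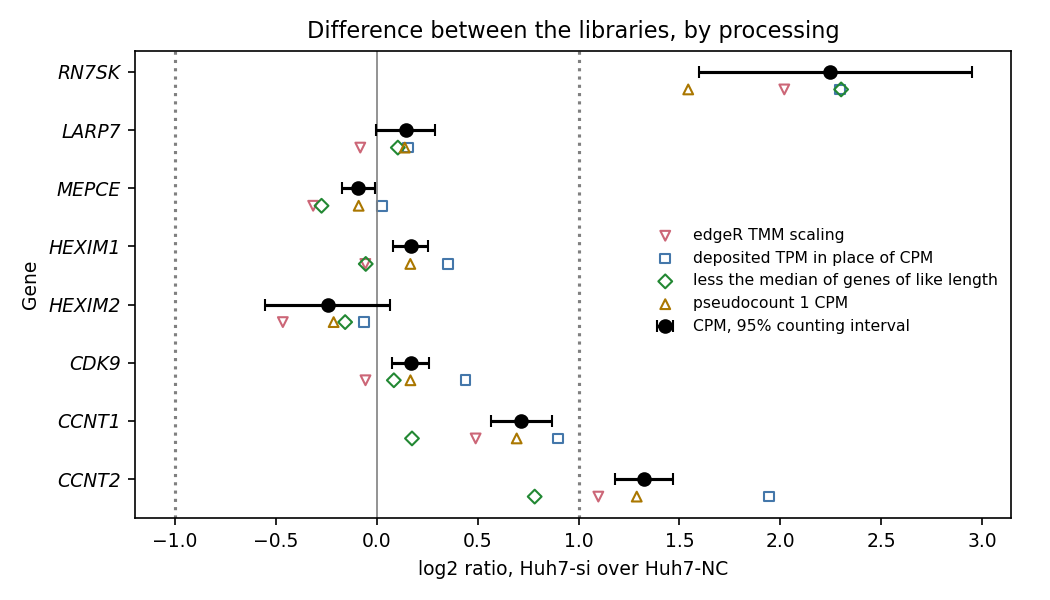
Log2 ratio of each gene, Huh7-si over Huh7-NC, with black points for CPM and bars for the 95% counting interval, and open symbols for other processing. RN7SK lies right of the 2-fold line (dotted) in each setting, CCNT2 in all but the comparison with genes of like length (0.78), and LARP7, MEPCE, HEXIM1 and CDK9 have symbols on both sides of 0.

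Gene length moved with the ratio. Over 20 length bins the median log2 ratio went from -0.06 in the shortest (62 to 702 bases), through -0.17 in the next, to 0.67 in the longest. CCNT1 (6788 bases) and CCNT2 (6920 bases) both fell in the bin of 6664 to 8484 bases, where the median was 0.54 and 17.0% of genes were past 2-fold higher. CCNT1 lay 0.17 above that median and CCNT2 0.78 above it, which is under 2-fold. RN7SK lay in the shortest bin, 2.30 above its median. The other genes lay between -0.27 (MEPCE) and 0.10 (LARP7) of the medians of their bins. What part length has in the values of the cyclin genes was not tested.

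**Figure D3:**
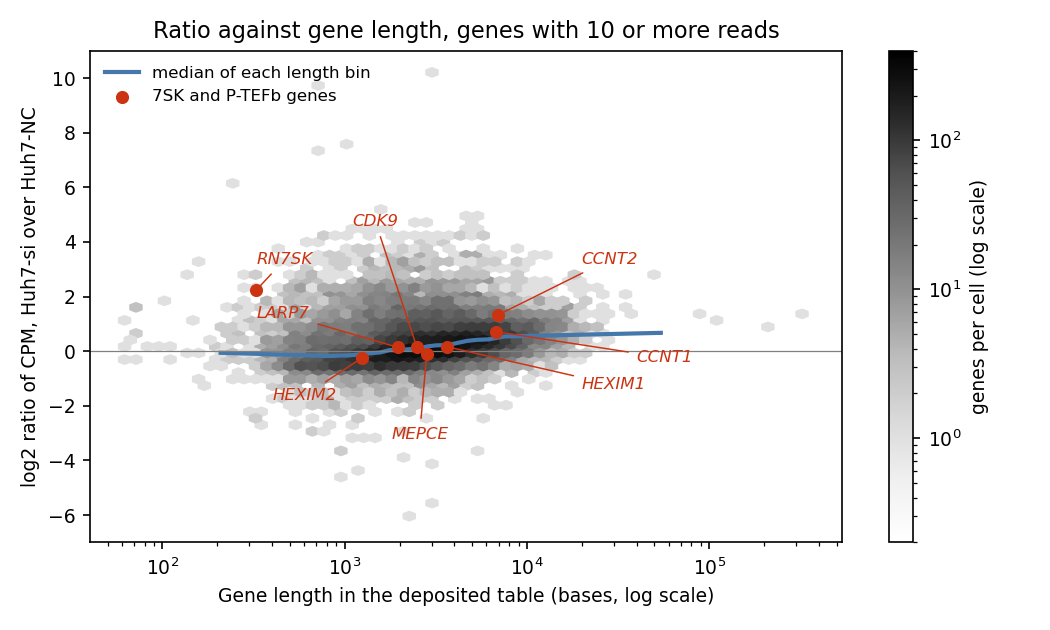
Log2 ratio of CPM, Huh7-si over Huh7-NC, against deposited gene length (log axis) for genes with at least 10 reads and reads in both libraries, shaded by number of genes, with the median of 20 length bins in blue and the 8 genes in red. The median climbs to 0.67 in the longest bin, RN7SK stands above it among the short genes, and CCNT1 lies near the line.

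Levels were ordered per length, by TPM. In Huh7-NC the order was MEPCE (61.5), CDK9 (59.2), HEXIM1 (31.6), LARP7 (23.2), RN7SK (13.3), HEXIM2 (9.34), CCNT2 (5.0) and CCNT1 (4.54). Counting intervals overlapped between MEPCE and CDK9, between RN7SK and HEXIM2, and between CCNT2 and CCNT1. In Huh7-si it was CDK9 (80.2), RN7SK (65.2), MEPCE (62.6), HEXIM1 (40.3), LARP7 (25.8), CCNT2 (19.2), HEXIM2 (8.93) and CCNT1 (8.47), with overlap between CDK9 and RN7SK, RN7SK and MEPCE, and HEXIM2 and CCNT1. RN7SK thus stood at place 5 in Huh7-NC and at place 2 in Huh7-si. Its place rests on the authors' length correction, because its TPM corresponds to effective lengths of 99.5 and 109 bases rather than the full 328. It also rests on how the RNA was selected, which is not given, since 7SK carries no long poly(A) tail and 9 of the 18 rows of other small RNAs had 0 reads. Its level against the mRNAs, here and in the ratios to LARP7, is therefore a level in these libraries and may not be that in the cells. Its ratio between the libraries has the same limit.

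Ratios within a library do not depend on the scaling between libraries. The TPM of CCNT2 was 1.10 times that of CCNT1 in Huh7-NC and 2.27 times in Huh7-si. From reads alone this ratio differed by 0.61 on the log2 scale (95% log-normal counting interval 0.40 to 0.81). The summed TPM of both cyclins was 0.161 of that of CDK9 in Huh7-NC and 0.345 in Huh7-si, with a log2 difference from reads of 0.88 (0.74 to 1.01). The cyclin genes are longer than CDK9, and genes of like length had a median log2 ratio of 0.54 for the cyclins and 0.08 for CDK9. This difference was not corrected for length. HEXIM1 and HEXIM2 summed to 0.692 and 0.613 of CDK9, a log2 difference from reads of -0.03 (-0.15 to 0.09) and from TPM of -0.17. RN7SK stood at 0.574 of the TPM of LARP7 in Huh7-NC and 2.53 times it in Huh7-si, with a log2 difference from reads of 2.10 (1.45 to 2.75). LARP7 was at 0.377 and 0.412 of MEPCE, a log2 difference from reads of 0.23 (0.07 to 0.40). These are mRNA and RNA levels, and the complexes themselves were not measured.

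For CCNT2 the TPM ratio was larger than the ratio of reads, 3.85-fold against 2.501-fold. Reads divided by TPM give the mean transcript length the authors' counting used in a library, once scaled on 149 genes of a single transcript, a measure chosen after values were seen. For CCNT2 it was 6176 bases in Huh7-NC and 4551 bases in Huh7-si, a ratio of 0.737, and 1.98% of 9976 genes had a ratio as low. Over those genes the median ratio was 0.996, and the 5th and 95th percentiles were 0.810 and 1.23. GENCODE release 29 lists 10 transcripts of CCNT2, the longest of them protein-coding with 6917 bases and another protein-coding one with 4491 bases. For CCNT1 the implied length was 7117 and 7097 bases, for HEXIM1 3657 and 3651 bases, and for CDK9 1747 and 1641 bases. For LARP7 it was 1744 and 1961 bases (ratio 1.12). The central 95% of the 149 genes of a single transcript had ratios of 0.919 to 1.21. The ratios of LARP7 and CDK9 (0.939) lay within that range, and that of CCNT2 lay below it. Among the 149 genes the implied length was 0.432 to 2.09 times the annotated length in Huh7-NC for the central 95% of them, so the ratio between libraries is the firmer value, and which transcripts carried the reads was not analysed here.

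**Figure D4:**
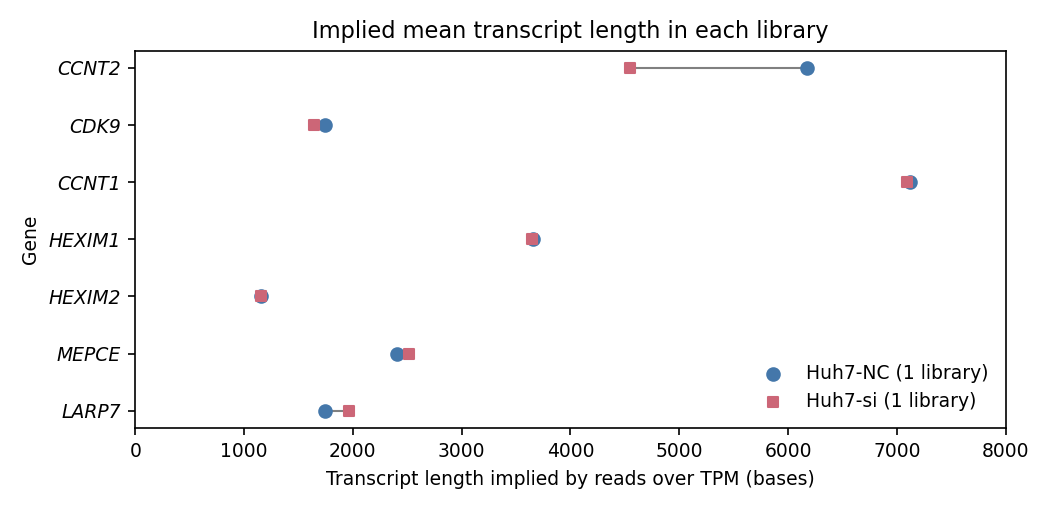
Mean transcript length in bases implied by reads over TPM for the 7 protein-coding genes, in Huh7-NC (blue circles) and Huh7-si (red squares). CCNT2 is the gene with the widest gap, 6176 against 4551 bases, and HEXIM1, HEXIM2 and CCNT1 have symbols nearly on top of each other.

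The factors around P-TEFb were taken from lists defined by complex or function. The super elongation complex carries P-TEFb to genes. Of the 10 genes of its subunits and partners, 1 was past 2-fold higher and 0 lower, beside 15.2% and 1.81% of all genes. Their median log2 ratio was 0.27, beside 0.21 over all genes, and -0.17 relative to genes of like length. The gene past 2-fold was AFF4, the scaffold of the complex, with 763 and 1520 reads and a log2 ratio of 1.04 (0.92 to 1.17). The interval of AFF4 includes values under the threshold, and the TMM shift of 0.22 would take it there. The other 9 ranged up to 0.83 and down to -0.67.

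NELF, DSIF, SPT6 and the PAF1 complex act at paused and elongating polymerase. None of their 13 genes passed 2-fold, beside 15.2% of all genes higher and 1.81% lower. Their median log2 ratio was -0.08 by CPM and 0.18 by TPM, beside 0.21 and 0.39 over all genes. CDC73 (0.40) and SUPT6H (0.37) were highest, and WDR61 (-0.41) and NELFB (-0.39) lowest. CDC73 and WDR61 encode PAF1 complex subunits, SUPT6H encodes SPT6 and NELFB is a subunit of the pausing factor NELF. The other kinases and cyclins of RNA polymerase II likewise held 0 of 9 genes past 2-fold, with a median of 0.25 that was -0.14 relative to genes of like length. CDK19 (0.59) and CDK8 (0.53), the Mediator kinases, were highest, and their cyclin CCNC (-0.60) and the CDK7 partner MNAT1 (-0.42) lowest.

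Among other proteins that bind 7SK or free P-TEFb from it, the sign of the median depended on the unit, while the median lay below that of all genes by both CPM and TPM. Of these 12 genes 10 lay below 0 by CPM, beside 35.2% of all genes, and the intervals of 2 of the 12 included 0. By TPM 6 of the 12 lay below 0, beside 24.9% of all genes. The median log2 ratio was -0.16 by CPM and 0.01 by TPM, beside 0.21 and 0.39 over all genes, and -0.33 relative to genes of like length. Of the 12 genes 0 passed 2-fold, beside 15.2% of all genes higher and 1.81% lower. The highest were the helicase DDX21 (0.29) and RBM7 (0.20). The lowest were the phosphatase gene PPP1CA (-0.43), with 22344 and 16052 reads, and HMGA1 (-0.42), a chromatin protein that 7SK binds. Among the 10 factors of 7SK-type promoters, 0 were past 2-fold higher and 1 lower, beside 15.2% and 1.81% of all genes. The lower one was BRF2, the gene that the siRNA targets. The median of the 10 was 0.17, or -0.06 with TMM scaling.

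Early response genes with short-lived mRNAs, a class known to be sensitive to P-TEFb inhibition, had the highest median of the protein-coding lists. Of 15 genes, 4 were past 2-fold higher, 0 were past it lower and 11 did not pass, beside 15.2% of all genes higher and 1.81% lower. The median was 0.41, beside 0.21 over all genes. FOSB went from 122 to 525 reads, a log2 ratio of 2.15 (1.87 to 2.45). FOS had 293 and 897 reads, a log2 ratio of 1.66 (1.47 to 1.86). FOS and FOSB encode partners of JUN in the AP-1 factor. KLF6, a zinc finger factor, had 808 and 2212 reads (2.83-fold), and ATF3, a stress-induced factor, had 312 and 811 reads (2.69-fold). The lists were also written with earlier results known and were compared by counts and medians only.

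**Figure D5:**
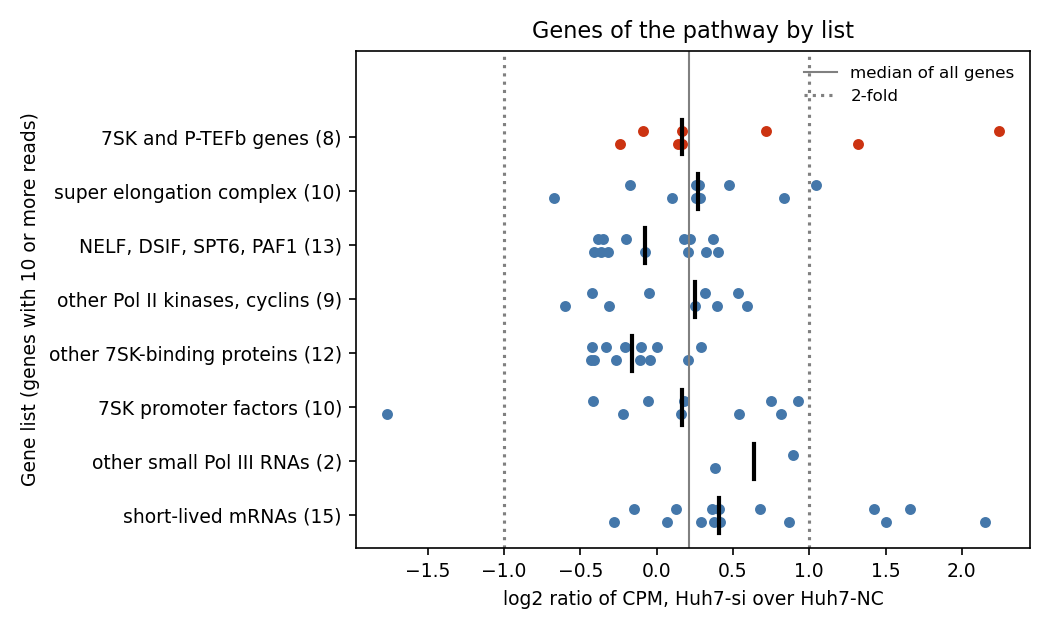
Log2 ratio of CPM, Huh7-si over Huh7-NC, for each gene with at least 10 reads in the 8-gene group (red) and 7 lists (blue), with a black bar for each list's median, a grey line for the median of all genes (0.21) and dotted lines at 2-fold. RN7SK, CCNT2, AFF4 and 4 short-lived mRNAs lie past 2-fold higher, and BRF2 past it lower.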

How the data were processed

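The members and lists were chosen with earlier results of these data known. Per the submitters' processing notes, TopHat2 2.0.12 and Bowtie2 2.0.6 and the build GRCh37 were named, while the counting tool, annotation and strandedness are not given in the sources used here. The authors deposited, per gene, an estimated count of reads (expected count, unscaled) together with TPM, which is scaled for length and depth, in each of the 2 libraries. The deposited fold (ratio), log2 fold and p-value columns hold the authors' own comparison and were not used. Gene identifiers matched GENCODE release 29 (GRCh38) for 94.8% of rows, and positions are from that release, not from the build that the submitters name.

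Estimated counts were divided by the library total (CPM) and compared as ratios, with 95% Clopper-Pearson intervals on counts rounded to whole numbers. Past the fold means a ratio of at least 2 or at most 0.5 among genes with at least 10 reads over both libraries. With 1 library per group no test was made, and no p-value is given. A count of 0 allows up to 3 reads, or 0.131 and 0.136 CPM. Of the genes compared, 139 had 0 reads in 1 library and counted as past the fold. Named genes were the 8 members, BRF2, list genes past 2-fold with at least 100 reads in a library (otherwise the 2 highest and 2 lowest of such genes), and the 3 genes nearest to RN7SK and to HEXIM1 in log2(TPM + 1). CCNT2-AS1, ZGRF1, ZCWPW1, RN7SL2, RPPH1, RMRP, the other small RNA rows with reads, and KRT19, SOX9 and other cell type markers were named beside these. A gene of the elongation factor lists is not reported here, and its list was counted without it. Intervals and calls were checked on simulated counts. Python 3.11.15, NumPy 2.4.6, pandas 2.3.3, SciPy 1.17.1, matplotlib 3.10.9, R 4.3.3, edgeR 4.0.16 (TMM factors) and DESeq2 1.42.0 (size factors) were used.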

Additional observations from a re-analysis of the deposited data

How the results depend on the processing

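With 1 library per condition no difference here has a replicate check and no replicate could be left out. RN7SK rests on 24 reads in Huh7-NC. No paired analysis was possible because each group has 1 library. RN7SK and CCNT2 were the 2 genes past 2-fold, and relative to genes of like length 1 was. Over all genes, 2723 were past 2-fold higher and 325 lower. These counts were 911 and 43 with 1 CPM added, 7630 and 2410 with no filter, 1668 and 128 where a gene needed 1 CPM in a library, and 5176 and 1041 at 1.5-fold. Lower genes numbered 544 with TMM and 512 with median-of-ratios scaling. A filter changes which genes are compared and a threshold which are counted, and for the other settings the cause was not tested. Under TMM, median-of-ratios and upper-quartile scaling, in that order, the sign turned for LARP7 (-0.0819, -0.0642 and -0.0407), HEXIM1 (-0.0569, -0.0392 and -0.0157), CDK9 (-0.0562, -0.0385 and -0.015), the median of the 8 genes (-0.0565, -0.0389 and -0.0154) and that of the 7SK promoter factors (-0.0569, -0.0392 and -0.0157). Relative to genes of like length it turned for HEXIM1 (-0.0549) and the medians of the super elongation complex list (-0.1726) and the other kinases (-0.1438). By TPM it turned for MEPCE (0.0254) and the medians of the pausing and elongation factors (0.1845) and the other 7SK-binding proteins (0.0126).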

Other observations

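Over the 2 libraries, the 3 genes nearest to RN7SK in log2(TPM + 1) were PLCB1 (distance 0.162), ENSG00000257379 (0.187) and XIST (0.359). PLCB1, a phospholipase C gene, had 15.0 TPM in Huh7-NC and 64.1 TPM in Huh7-si. In reads it went from 900.0 to 1525, a log2 ratio of 0.81, so it is near RN7SK in TPM and not in CPM. ENSG00000257379, which carries no symbol, had 378 and 1314 reads, a log2 ratio of 1.85. The 3 nearest to HEXIM1 were RALA (0.0131), TTC9C (0.0135) and CYHR1 (0.0223), with 31.1 to 31.5 TPM in Huh7-NC and 39.9 to 40.4 TPM in Huh7-si. Likeness over 2 libraries rests on 2 values per gene and carries no information on shared control.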
